A study of Mus musculus with 8 samples.

Results

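The genes of lipid droplets and triglyceride storage were examined in mouse liver after a herbal treatment. The set holds 10 genes picked by name, namely Pparg, Cd36, Mogat1, Dgat1, Dgat2, Plin2, Plin4, Plin5, Cidec and Pnpla2. Each matched exactly 1 row of the deposited table of 24547 genes. The treated group holds 4 liver libraries from ICR mice, an outbred stock, that received a decoction of Psoraleae Fructus (the fruit of Psoralea corylifolia) by the intragastric route for 30 days at what the labels call a high dose. The control group holds 4 liver libraries from ICR mice, and the protocol names saline as the other agent given by that route over the same time. Neither a genotype nor a transgene is named, and the labels state no dose by mass, sex, age, batch or hour of sampling. Nothing in the labels ties a library to a particular animal, so the p-values below measure the spread between libraries, which may be partly technical.

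A lipid droplet is a store of triglyceride and sterol ester under a single layer of phospholipid, coated with perilipin proteins. In liver, fatty acids reach the hepatocyte through carriers such as CD36, are joined to glycerol by acyltransferases that end with DGAT1 and DGAT2, and are released again by lipases led by the PNPLA2 protein, also called ATGL. PPARγ, the product of Pparg, is the nuclear receptor that drives this storage programme in fat tissue. Its level in healthy liver is low, and in mouse models of fatty liver it has been linked to Cd36, Cidec, Mogat1, Plin2 and Plin4.

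Treated libraries held between 16398729 and 20159132 counts, and control libraries between 15864399 and 19153845. Hepatocyte markers dominated, with the summed level of 9 such genes at 141300 to 162500 CPM in treated and 115400 to 170700 CPM in control libraries (CPM is the read count scaled to a common library size with TMM factors). In the edgeR quasi-likelihood test 1184 of 12861 tested genes were called at an adjusted p under 0.05, which is 9.21% (5.46% higher and 3.75% lower in treated libraries). Across genes, the rank correlation of the fold change was 0.309 with GC content and -0.241 with gene length, so the calls are also given after a correction for both. Control libraries stood further apart than treated ones: the coefficient of variation was larger among controls for 67.8% of tested genes. Control 4 stood apart in genes of feeding, as Scd1, a fatty acid desaturase, stood at 348 to 908 CPM in treated libraries, against 209 to 415 CPM in controls 1 to 3 and 13700 CPM in control 4. Results that rest on it are given with and without that library.

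The promoter sequences below are those of the called gene, Pparg, and of the 3 storage genes with letters close to a PPAR response element, shown so that the receptor and its candidate targets can be read together. They come from RefSeq on GRCm38.p6 and cover the 250 bases before an annotated start. The element, called DR1, is a pair of AGGTCA hexamers with 1 base between them. It was searched on both strands with up to 2 mismatches. Capitals mark the DR1 match, or, in Pparg, the single AGGTCA hexamer, a motif that is also part of the DR1 element.
Pparg promoter, chr6:115360894-115361143, plus strand: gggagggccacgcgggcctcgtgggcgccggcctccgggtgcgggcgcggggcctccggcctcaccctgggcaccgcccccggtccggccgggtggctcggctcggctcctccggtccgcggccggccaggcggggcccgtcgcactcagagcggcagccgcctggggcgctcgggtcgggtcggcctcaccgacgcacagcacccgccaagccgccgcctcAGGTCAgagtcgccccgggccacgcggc
Plin2 promoter, chr4:86670060-86670309, minus strand: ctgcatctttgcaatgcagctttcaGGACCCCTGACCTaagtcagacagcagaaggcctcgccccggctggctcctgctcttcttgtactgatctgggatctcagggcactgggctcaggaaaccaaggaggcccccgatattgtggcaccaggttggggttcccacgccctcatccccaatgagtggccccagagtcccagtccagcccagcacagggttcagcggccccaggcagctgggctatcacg
Cd36 promoter, chr5:17835897-17836146, minus strand: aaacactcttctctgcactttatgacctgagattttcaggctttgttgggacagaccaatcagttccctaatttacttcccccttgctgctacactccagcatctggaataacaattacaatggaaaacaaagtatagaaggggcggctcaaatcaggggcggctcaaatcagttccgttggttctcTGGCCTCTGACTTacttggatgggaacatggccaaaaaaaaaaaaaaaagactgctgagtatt
Mogat1 promoter, chr1:78510810-78511059, plus strand: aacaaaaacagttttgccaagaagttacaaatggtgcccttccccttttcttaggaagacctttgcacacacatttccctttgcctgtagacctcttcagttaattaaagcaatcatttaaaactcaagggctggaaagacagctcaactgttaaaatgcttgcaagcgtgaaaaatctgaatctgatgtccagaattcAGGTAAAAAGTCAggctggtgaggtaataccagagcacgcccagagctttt

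Of the 10 genes, 8 were in the promoter table, with 12 starts in all, and 3 of those starts held a DR1 match. Over all 32851 starts the share with such a match was 3.24%. The match read GGACCCCTGACCT in Plin2, TGGCCTCTGACTT in Cd36 and AGGTAAAAAGTCA in Mogat1, each with 2 mismatches. No DR1 match lay in the 250 bases before the 3 Pparg starts, or before the starts of Cidec, Plin4, Plin5 and Pnpla2. The hexamer AGGTCA was found on either strand at 5 of the 12 starts (in Plin2 inside the DR1 match), against 14.0% of all starts. Neither the E-box CACGTG, read by clock factors among others (6.02% of all starts), nor the D-box TTATGNAA, read by DBP and its relatives (3.07%), was found at any of the 12. These matches describe letters only, and promoters of Dgat1 and Dgat2 were not analysed here.

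The gene of the receptor rose, and none of the other 8 tested storage genes was called by edgeR. Of the 10 genes, 9 passed the low-count filter and 1 was called, Pparg, which was higher in treated livers. By edgeR 0 were called lower, although 1 (Plin2) had an unadjusted p under 0.05, and DESeq2 and limma-voom each called Plin2 lower and Dgat2 higher. One call in 9 lies near the 9.21% called over all genes, so the count is not a result about these genes. Log2 fold changes were below 0 for 6 of the 9 and above 0 for 3, with a median of -0.11 against -0.04 over all tested genes. Treated and control values did not overlap for Pparg (higher) and Plin2 (lower), where 10.2% of all tested genes were higher without overlap, 8.7% lower and 18.9% either. In these bulk samples, fewer cells of a type and less RNA per cell cannot be told apart.

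**Figure D1:**
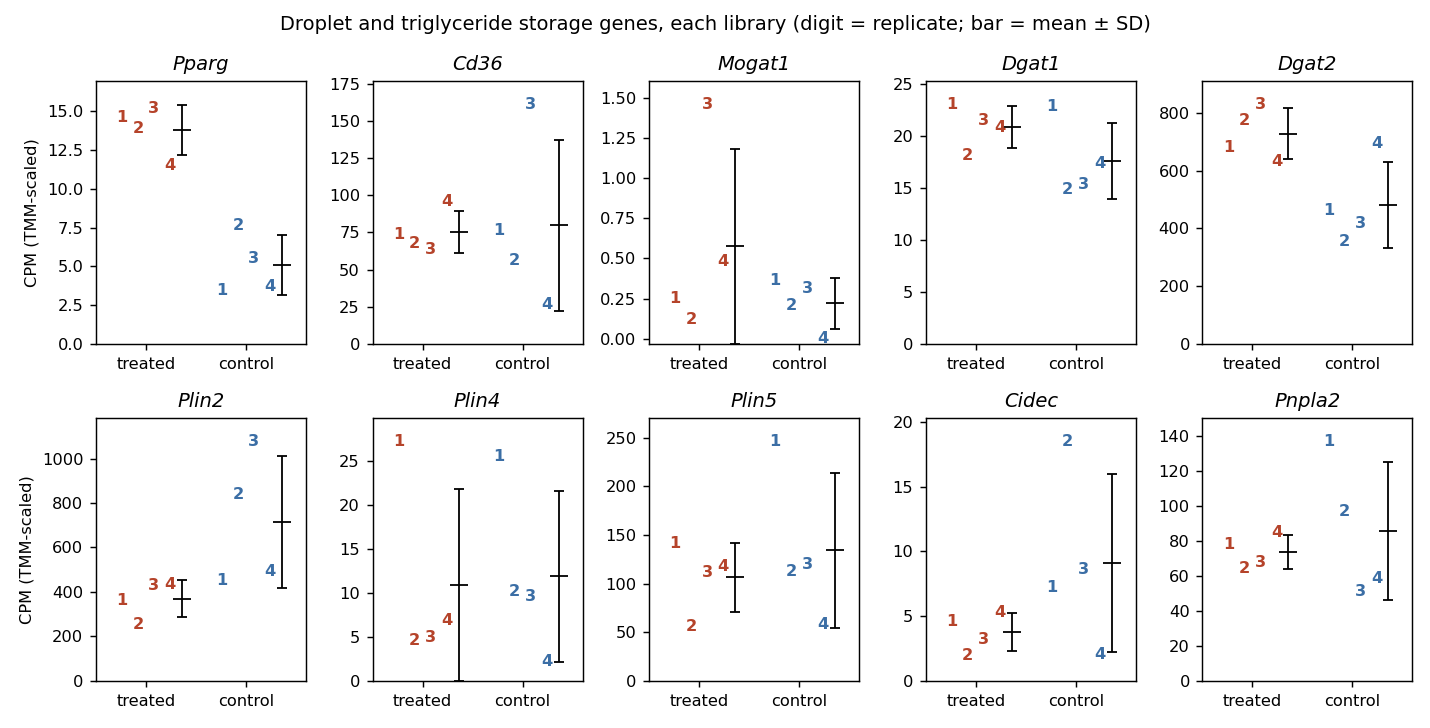
Level of each of the 10 storage genes in CPM (vertical axis, a separate linear scale per gene) in the 4 treated and 4 control libraries. Digits are the replicate numbers, and bars give the mean ± SD. Pparg lies between 11.5 and 15.2 CPM in treated and between 3.43 and 7.60 CPM in control libraries, Plin2 is lower in every treated library, and the other genes overlap.

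Pparg encodes the receptor PPARγ and lies on chromosome 6, 115360951 to 115490399, plus strand (ENSMUSG00000000440, GRCm38). Pparg stood at 14.6, 13.8, 15.2 and 11.5 CPM in treated libraries 1 to 4, against 3.43, 7.60, 5.53 and 3.73 CPM in controls 1 to 4. The lowest treated library was above the highest control, and the highest treated value was 1.323 times the lowest. Means were 13.8 ± 1.62 CPM in treated and 5.07 ± 1.93 CPM in control livers (SD, n = 4 each), a log2 fold change of 1.44 (SE 0.25, edgeR adjusted p = 0.0126). After the correction for length and GC content the log2 fold change of Pparg was 1.45 (edgeR adjusted p = 0.0168), in a fit that called 4.58% of all genes. Without treated library 3 it was 1.39 and just missed the threshold (edgeR adjusted p = 0.0511), in a fit that called 1.4% of all genes. The table counts reads per gene, and the annotated starts of Pparg are spread over different first exons, so its isoforms could not be separated.

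Likeness to Pparg was measured as the mean absolute difference in log2 CPM over the 8 libraries, with each gene centred on its control mean. The closest 5, out of 9225 other genes that averaged 5 CPM or more, were Gadd45gip1 (0.17), Nr2f6 (0.24), Adamts7 (0.25), H2afj (0.29) and Rps28 (0.30). None of these is a storage gene. The measure includes the shift between groups, so a gene with a fold change far from that of Pparg could not rank close. The log2 fold changes of these 5 ran from 1.27 for H2afj to 1.52 for Adamts7, beside 1.44 for Pparg, a nearness that the measure itself favours.

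Cd36 encodes a scavenger receptor and fatty acid translocase (chromosome 5, 17781690 to 17888801, minus strand, ENSMUSG00000002944). Cd36 stood at 73.5, 67.9, 63.7 and 95.7 CPM in treated libraries, against 76.1, 56.2, 161 and 26.8 CPM in controls. All treated values lay inside the control range, which spanned 5.998-fold from control 4 to control 3. The means were 75.2 ± 14.2 CPM in treated and 79.9 ± 57.5 CPM in control livers, and the log2 fold change was -0.09 (SE 0.47, edgeR adjusted p = 0.925). The sign depended on the fit, at 0.19 after the length and GC correction and 0.50 without control 3. Endothelial cells and macrophages also carry this receptor. The summed level of 9 endothelial markers was 280 to 420 CPM in treated and 411 to 546 CPM in control libraries, and its part in the Cd36 values was not tested.

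Of the 3 acyltransferase genes in the set, Dgat2 had by far the highest level in FPKM. Mogat1 (chromosome 1, 78510991 to 78538173, plus strand, ENSMUSG00000012187), which adds a fatty acid to monoacylglycerol, was read 5, 2, 24 and 8 times in treated libraries and 6, 4, 5 and 0 times in controls. Treated library 3 held 24 of the 39 reads of the treated group, and the controls held 15 in all. The count of 0 in control 4 allows up to 0.157 CPM (3 counts), for counting error only. Mogat1 did not pass the low-count filter, and some of its exons overlap a gene on the opposite strand, BC035947, whose reads could not be told apart because the kit does not mark strand.

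Dgat1 (chromosome 15, 76502015 to 76511953, minus strand, ENSMUSG00000022555) makes triglyceride from diacylglycerol in the endoplasmic reticulum, largely from fatty acid taken up from outside. Dgat1 stood at 23.0, 18.1, 21.5 and 20.8 CPM in treated libraries, against 22.8, 14.8, 15.3 and 17.3 CPM in controls. The groups overlapped through control 1, and the log2 fold change was 0.24 (SE 0.16, edgeR adjusted p = 0.329).

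Dgat2 (chromosome 7, 99153658 to 99182719, minus strand, ENSMUSG00000030747) encodes an unrelated enzyme for the same step, tied in liver to newly made fatty acid. Dgat2 stood at 680.5, 774, 827 and 632 CPM in treated libraries, against 464, 353, 417 and 695 CPM in controls. Every treated library lay above controls 1 to 3, and control 4 lay inside the treated range. The means were 728 ± 88.3 CPM in treated and 482 ± 149 CPM in control livers, a log2 fold change of 0.59 (SE 0.22) that was not called (edgeR adjusted p = 0.106).

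The call on Dgat2 depended on control 4 and on the tool. Without control 4 the log2 fold change of Dgat2 was 0.83 (edgeR adjusted p = 0.0128), in a fit that called 17.8% of all genes and 4 of the 9 storage genes. Without controls 2 and 4 it was 0.73 (edgeR adjusted p = 0.0416), with 8.07% of all genes called. With all libraries it was called by DESeq2 (log2 0.60, adjusted p = 0.0488) and by limma-voom (log2 0.74, adjusted p = 0.0206). DESeq2 called 2160 of 22857 genes (9.45%) and limma-voom 2088 of 12861 (16.2%). DESeq2 was run without the low-count filter, so its share is over more genes than those of edgeR and limma-voom. After the length and GC correction the log2 fold change of Dgat2 was 0.44 (edgeR adjusted p = 0.246).

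Plin2 encodes perilipin 2, the coat protein found on most hepatocyte droplets, whose protein is stabilised by droplet fat (chromosome 4, 86648386 to 86670060, minus strand, ENSMUSG00000028494). Plin2 stood at 363, 255, 430.4 and 433 CPM in treated libraries, against 453, 837, 1076 and 493 CPM in controls. No treated value reached the lowest control, but the gap from treated library 4 at 433 CPM to control 1 at 453 CPM was small, and controls 2 and 3 lay far above. The means were 370.5 ± 83.3 CPM in treated and 715 ± 296 CPM in control livers, a log2 fold change of -0.95 (SE 0.30, edgeR adjusted p = 0.0742). The change thus did not pass the test.

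Plin2 was called lower by DESeq2 (log2 -0.94, adjusted p = 0.0162) and by limma-voom (log2 -1.08, adjusted p = 0.0342). By edgeR it was called without control 1 (log2 -1.11, adjusted p = 0.0438), where 8.58% of all genes were called, and without control 4 (log2 -1.09, adjusted p = 0.0356). Stellate cells and macrophages hold droplets with this protein too. The summed level of 14 macrophage markers was 458 to 894 CPM in treated and 673 to 1648 CPM in control libraries, with its highest value in control 2, and that of 10 stellate cell and fibroblast markers was 266 to 372 CPM in treated and 355 to 462 CPM in control libraries. Their part in the Plin2 values was not tested.

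The other perilipins of the set varied more among libraries than between groups. Plin3, a perilipin outside the set, averaged 29.8 ± 8.30 CPM in treated and 26.85 ± 5.78 CPM in control livers (log2 0.15, edgeR adjusted p = 0.697). Plin4 and Plin5 are neighbours on the minus strand of chromosome 17, at 56100591 to 56109803 (ENSMUSG00000002831) and 56111601 to 56117596 (ENSMUSG00000011305), with 1797 bases and no gene between them. Plin4 encodes the perilipin of nascent droplets in fat tissue, and Plin5 encodes the perilipin of oxidative tissues, which ties droplets to mitochondria and restrains the ATGL lipase.

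Plin4 stood at 27.2, 4.63, 4.98 and 6.81 CPM in treated libraries, against 25.4, 10.1, 9.62 and 2.26 CPM in controls. Library 1 of each group was high, and control 4 was lowest of all. Exons of Plin4 overlap those of Hdgfl2 on the opposite strand, so part of its reads may belong to that gene. The log2 fold change of Plin4 was -0.11 (SE 0.82, edgeR adjusted p = 0.944), and it ran from -1.09 without treated library 1 to 0.58 without control 1.

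Plin5 stood at 141, 56.1, 111 and 117 CPM in treated libraries, against 246, 112, 120 and 58.1 CPM in controls. Its highest values also fell in library 1 of each group, and the ranges overlapped. The log2 fold change was -0.33 (SE 0.44, edgeR adjusted p = 0.65), and it was 0.14 without control 1.

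Cidec (chromosome 6, 113424634 to 113435760, minus strand, ENSMUSG00000030278) encodes the protein that fuses small droplets into larger ones and is a marker of steatosis in mouse liver. Cidec stood at 4.55, 1.94, 3.22 and 5.26 CPM in treated libraries, against 7.21, 18.5, 8.61 and 2.05 CPM in controls. Controls 1 to 3 lay above every treated library, and control 4 lay near the lowest treated one. The log2 fold change was -1.28 (SE 0.59, edgeR adjusted p = 0.189), so the difference did not pass the test. The value turned on single controls. Without control 4 the log2 fold change of Cidec was -1.61 and was called (edgeR adjusted p = 0.0311), and without control 2, the highest library, it was -0.66 (edgeR adjusted p = 0.452).

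Pnpla2 (chromosome 7, 141455198 to 141460743, plus strand, ENSMUSG00000025509) encodes ATGL, which takes the initial fatty acid off triglyceride. Pnpla2 stood at 77.9, 64.2, 67.5 and 85.1 CPM in treated libraries, against 137, 96.9, 51.3 and 58.6 CPM in controls. The treated libraries lay inside the control range, and their coefficient of variation was 13.0%, against 45.9% in controls. The log2 fold change was -0.22 (SE 0.29, edgeR adjusted p = 0.646), and it was 0.10 without control 1.

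**Figure D2:**
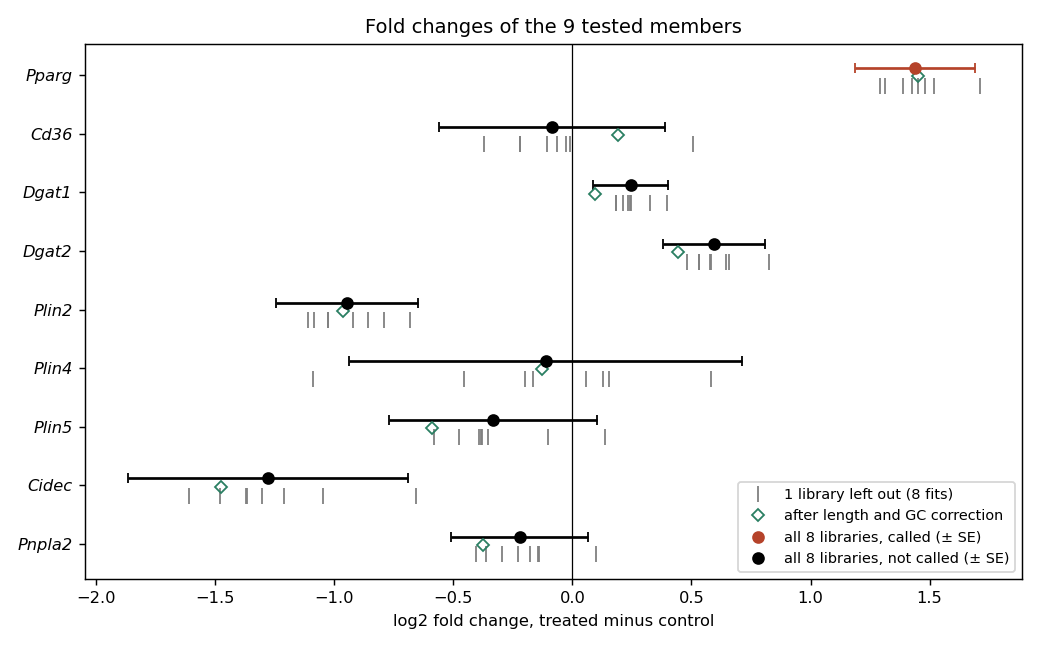
Log2 fold change, treated minus control (horizontal axis), of the 9 storage genes tested. Circles with bars are the fit on all 8 libraries ± SE (red where called), diamonds the fit after correction for gene length and GC content, and ticks the 8 fits with a library left out. Pparg lies at 1.44 and between 1.29 and 1.71 in the fits with a library left out, while Cd36, Plin4, Plin5 and Pnpla2 have ticks on both sides of 0.

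Levels between genes were compared in the deposited FPKM (counts divided by gene length and library total). In treated livers Dgat2 led with 232 ± 28.6 FPKM, followed by Plin2 (103 ± 19.8), Plin5 (49.8 ± 16.3), Pnpla2 (23.99 ± 2.997), Cd36 (20.6 ± 3.87), Dgat1 (6.70 ± 0.55), Pparg (4.59 ± 0.54), Cidec (1.97 ± 0.76), Plin4 (1.86 ± 1.87) and Mogat1 (0.35 ± 0.36). The treated ranges of neighbours in this order did not overlap, except those of Pnpla2 and Cd36, Cidec and Plin4, and Plin4 and Mogat1. In control livers Plin2 led with 208.5 ± 90.9 FPKM and Dgat2 came next with 158 ± 45.0 FPKM, with overlapping ranges. The middle of the control order was the same, and Pparg came near its end at 1.77 ± 0.79 FPKM, behind Cidec (5.12 ± 4.204) and Plin4 (2.05 ± 1.59), which overlapped. As a share of the summed FPKM of the 10 genes, Dgat2 made up 52.3% ± 7.50 in treated and 32.9% ± 13.6 in control libraries. The share of Plin2 was 23.1% ± 3.84 in treated and 40.8% ± 13.0 in control libraries. The highest Plin2 share of a treated library was 27.1% and the lowest of a control 26.8%, so the groups overlapped.

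**Figure D3:**
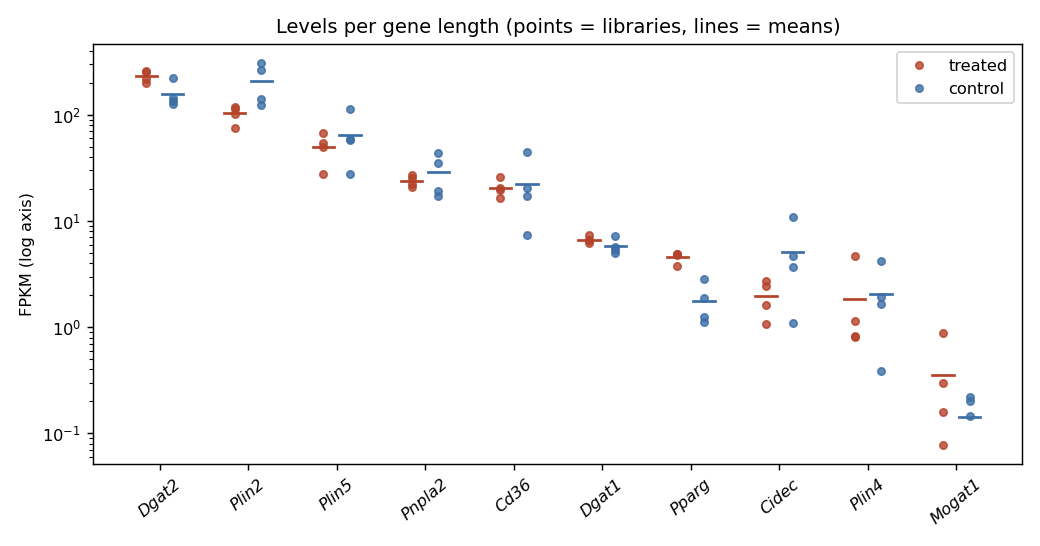
Level per gene length in FPKM (logarithmic vertical axis) of the 10 storage genes, ordered by their mean in treated livers. Points are libraries (treated left, control right) and lines are group means; the single 0 of Mogat1 in control 4 cannot be drawn on this axis. Dgat2 is highest in treated livers at 232 FPKM and Plin2 in control livers at 208.5 FPKM.

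Ratios within a library, in which library scaling cancels, were taken for 3 pairs with opposed or parallel roles. The log2 ratio of Dgat2 over Dgat1 was 5.11 ± 0.26 in treated and 4.74 ± 0.42 in control libraries (exact two-sided permutation p = 0.171, adjusted p = 0.514 over 3 ratios). That of Plin5 over Plin2 was -1.10 ± 0.35 in treated and -1.76 ± 1.09 in control libraries (exact two-sided permutation p = 0.343, adjusted p = 0.514). That of Pnpla2 over G0s2, which encodes an inhibitor of the ATGL lipase, was -2.26 ± 0.40 in treated and -2.20 ± 1.57 in control libraries (exact two-sided permutation p = 0.886, adjusted p = 0.886). The smallest p that 70 assignments allow is 0.0286, and each pair of ranges overlapped. The Pnpla2 to G0s2 ratio spanned -0.60 in control 1 to -4.33 in control 3, against -1.84 to -2.81 in treated libraries.

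Single libraries held many of the extreme values. Control 1 was the highest control for 5 of the 10 genes, Plin4, Plin5, Mogat1, Dgat1 and Pnpla2, where 26.5% of all tested genes were highest there. Control 4 was the lowest control for 5 genes, Cd36, Plin4, Plin5, Mogat1 and Cidec, where 31.4% of all tested genes were lowest there, and it was highest for Dgat2. Among treated libraries, library 2 was the lowest for 7 of the 10 (24.2% of all tested genes), all but Pparg, Cd36 and Dgat2. For 8 of the 10 genes the coefficient of variation was larger in controls, Plin4 excepted with 99.9% in treated and 82.1% in control libraries, and Mogat1 with 105% in treated and 72.8% in control libraries.

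Genes of feeding and of the clock also differed among these libraries, and the examples here were chosen after their values were seen. Igfbp1, a liver gene that rises in fasting, stood at 32.0 to 53.4 CPM in treated libraries, against 632 CPM in control 1, 253 in control 2, 133 in control 3 and 9.97 in control 4. Lpin1, a phosphatidate phosphatase and coactivator, stood at 220.9 to 499.8 CPM in treated libraries, against 1471 CPM in control 1 and 88.02 to 332 CPM in controls 2 to 4. Cyp4a14, a target of PPARα, stood at 119 to 848 CPM in treated libraries, against 1.94 CPM in control 4 and 2045 to 2686 CPM in controls 1 to 3. Dbp, a clock output gene, stood at 38.0 to 79.4 CPM in treated libraries and 35.6 CPM in control 4, against 0.155 to 2.04 CPM in controls 1 to 3. Control 4 thus lay near the treated libraries for Dbp, though below each of them. Among the tested storage genes, it lay inside the treated range for Dgat2, Cidec and Plin5. It lay below every treated library for Pparg, Cd36, Dgat1, Plin4 and Pnpla2, and above every treated library for Plin2. The part of feeding state and sampling hour in the storage gene values was not tested, and the labels give neither.

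**Figure D4:**
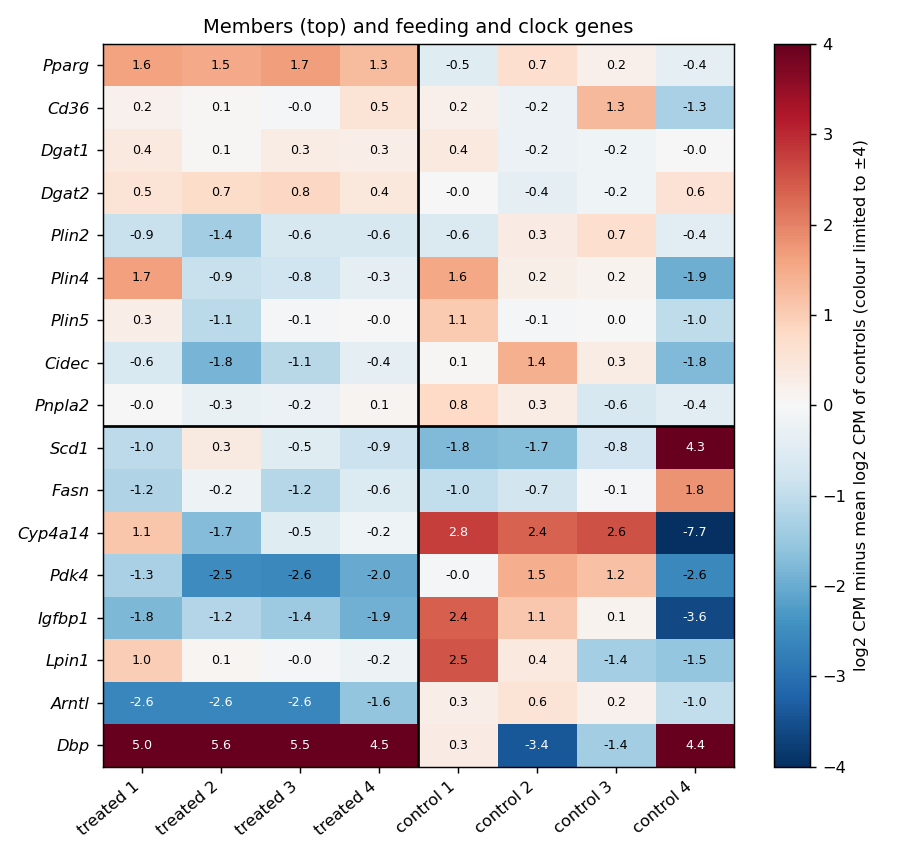
Log2 CPM of each gene minus its mean log2 CPM in controls (colour, limited to ±4, and printed value), for the 9 tested storage genes (above the line) and 8 feeding and clock genes (below), in treated (left) and control (right) libraries. Pparg is raised by 1.25 to 1.66 in the 4 treated libraries, and control 4 is the lowest control for Cyp4a14 (-7.67), Igfbp1 (-3.60), Pdk4 (-2.57), Plin4 (-1.94) and Cidec (-1.77) and the highest for Dbp (4.45) and Scd1 (4.26).

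The other genes of the pathway were read from the same edgeR fit, in lists put together with earlier results of these data known. The edgeR counts for each list stand beside 5.46% of all tested genes called higher and 3.75% called lower. Of 15 further genes of the droplet coat and of droplet formation 13 were tested, and 2 rose and 0 fell (0 also at an unadjusted p under 0.05, and by DESeq2 and limma-voom, which each called Aup1 higher too), with a median log2 fold change of 0.01. Fitm1, a droplet formation gene known from muscle, stood at 4.45, 5.04, 7.89 and 6.99 CPM in treated libraries, against 1.08, 1.50, 3.27 and 1.84 CPM in controls (log2 1.66, SE 0.35, adjusted p = 0.0224). Cideb, the hepatocyte relative of Cidec, rose by 0.68 on the log2 scale (SE 0.18, adjusted p = 0.0451), to 28.3 CPM in treated against 17.6 CPM in control livers. Both were no longer called after the length and GC correction, Fitm1 at a log2 of 1.12 (adjusted p = 0.0873) and Cideb at 0.51 (adjusted p = 0.0887). Plin1 and Cidea, the forms of fat tissue, had 0 counts in all 8 libraries, which allows up to 0.0212 CPM over the pooled counts.

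Few genes of triglyceride synthesis and lipolysis outside the set were called, and their fold changes went both ways. Of 19 further synthesis genes 18 were tested, with a median log2 fold change of -0.10. Of these 1 fell, Acsl4, an acyl-CoA synthetase that prefers arachidonate, at 38.1 CPM in treated and 58.3 CPM in control livers (log2 -0.61, SE 0.16, adjusted p = 0.0429, and -0.30 after the correction, adjusted p = 0.271). None rose by edgeR or limma-voom, with 1 (Gpd1) at an unadjusted p under 0.05 by edgeR and called by DESeq2. Of 12 further lipolysis genes 11 were tested, with a median of -0.07, and 0 were called by edgeR, DESeq2 or limma-voom, with 2 (Lipc and Lipe) at an unadjusted p under 0.05 in each. Without control 4, Lipc was called higher and Abhd6 lower. The most abundant of them, the carboxylesterase Ces1d and the deacetylase Aadac, stood at 473 and 178 FPKM in treated, against 347 and 183 FPKM in control livers.

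Lipid uptake genes other than Cd36 had a median log2 fold change of 0.41 over 10 tested, and 2 rose. Fabp1, the fatty acid binding protein of hepatocytes, averaged 2643 CPM in treated and 777 CPM in control livers (log2 1.77, SE 0.30, adjusted p = 0.0114) and was still called after the correction (log2 1.38, adjusted p = 0.0329). Slc27a1, a fatty acid transport protein, stood at 8.40 to 14.6 CPM in treated and 4.40 to 7.15 CPM in control libraries (log2 0.89, SE 0.22, adjusted p = 0.0368), a call lost after the correction (log2 0.79, adjusted p = 0.0713). Without control 4, Vldlr was also called higher. By edgeR 0 of the 10 fell, with 1 (Lpl) at an unadjusted p under 0.05, and 0 fell by DESeq2 or limma-voom.

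Among 15 partners and regulators of PPARγ, all tested, the median log2 fold change was 0.04, and Rxrb and Cebpa were among those that rose. Rxrb, a retinoid X receptor that pairs with it, averaged 38.4 CPM in treated and 23.7 CPM in control livers (log2 0.70, SE 0.14, adjusted p = 0.0177). Cebpa, a factor that acts with PPARγ in fat cells, rose by 0.90 on the log2 scale (SE 0.20, adjusted p = 0.0262). Neither was called after the correction, Rxrb at a log2 of 0.39 (adjusted p = 0.0802) and Cebpa at 0.50 (adjusted p = 0.166). Ppara, the related receptor of fatty acid oxidation, averaged 149.7 ± 11.7 CPM in treated and 145 ± 8.405 CPM in control livers, and is given here although it was not called. Without control 4, Srebf1 was called higher as well.

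Of 15 further PPAR targets 13 were tested, with a median log2 fold change of -0.37, and 1 rose, the peroxisomal thiolase Acaa1b (log2 1.12, SE 0.23, adjusted p = 0.0202, and 0.84 after the correction, adjusted p = 0.0711), which has a close paralog that could share its reads. Without control 4, Pdk4, Cyp4a14 and Acot1 were called lower beside it. Of 16 genes that answer feeding or fasting, 15 were tested, with a median of -1.09. The list mixes genes of both states, so this median gives no direction of response. By edgeR Acacb fell (log2 -1.57, adjusted p = 0.0204, and 0.0319 after the correction). So did Insig2 (log2 -1.47, adjusted p = 0.0294), whose call was lost after the correction (log2 -1.38, adjusted p = 0.0528). DESeq2 called 6 genes of the list lower (also Igfbp1, Acaca, Irs2 and G6pc). limma-voom called 4 lower (also Irs2 and G6pc), and 0 were called higher by either tool. Of 15 clock genes, all tested, with a median of 0.61, Per2 rose (log2 1.16, adjusted p = 0.0185) and Arntl, Npas2 and Cry1 fell (log2 -2.38, -3.87 and -1.12, adjusted p = 0.00993, 0.00993 and 0.0437). After the correction Per2, Arntl and Npas2 were still called (adjusted p = 0.0330, 0.0168 and 0.0165), and Cry1 was not (adjusted p = 0.0574). Clock genes changed in both directions, so the median of that list gives no direction either. With all libraries DESeq2 called 3 clock genes higher and 3 lower, and limma-voom 7 higher and 4 lower. Without control 4, 2 feeding genes were called higher and 5 lower, and 8 clock genes higher and 4 lower. That fit called 17.8% of all genes, against 9.21% with all libraries. Over all tested genes the median was -0.04.

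Fat tissue was nearly absent from these libraries. Of 7 adipocyte markers 6 were read, of which Plin1 and Retn were at 0 counts, and Adipoq had 3 counts over all 8 libraries. The summed level of the list, nearly all of it Fabp4 and Lipe, was 9.79 to 13.7 CPM in treated and 11.9 to 17.7 CPM in control libraries. T and NK cell markers (5 genes) summed to 3.11 to 5.22 CPM in treated and 7.45 to 21.2 CPM in control libraries, and cholangiocyte markers (5 genes) to 13.9 to 34.3 CPM in treated and 18.8 to 31.3 CPM in control libraries. By edgeR, where 3.75% of all tested genes fell, so did 3 of 14 tested macrophage markers (Adgre1, Timd4 and Ccr2), 1 of 10 stellate cell markers (Pdgfra), 2 of 9 endothelial markers (Pecam1 and Tek) and 3 of 3 tested T and NK cell markers (Cd3g, Nkg7 and Il2rb). After the length and GC correction the calls on Pdgfra, Pecam1, Nkg7 and Il2rb remained, those on all 3 macrophage markers, Tek and Cd3g were lost, and the macrophage marker Csf1r was called lower (adjusted p = 0.0495). Without control 4, edgeR called 9 macrophage, 1 stellate cell, 3 endothelial and 4 T and NK cell markers lower. That fit called 17.8% of all genes in either direction, and 1106 of 13091 lower. In the same order, DESeq2 called 6, 2, 2 and 4 lower and limma-voom 6, 3, 2 and 3. Over all genes DESeq2, run without the low-count filter, called 1018 of 22857 lower, and limma-voom 904 of 12861. No marker of the macrophage, stellate cell, endothelial, cholangiocyte or T and NK cell lists was at 0 throughout. The part of these cell types in the storage gene values was not tested.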

How the data were processed

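RNA from 8 liver samples was sequenced after poly-A selection with an NEBNext Ultra kit, which does not mark strand, per the labels' protocols. Raw counts and FPKM of each gene and library were deposited by the authors. The submitters' processing notes name GRCm38 as build and, as tools without a stated role, HISAT2, DESeq2 1.32.0 and HTSeq 0.13.5. No annotation release or strand setting is stated. The deposited FPKM equal each count divided by a gene length and the library total, as checked on the values.

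Counts were tested in R 4.3.3 with edgeR 4.0.16: filterByExpr at its defaults (minimum count 10, total 15), TMM factors, and the robust quasi-likelihood F test of treated against control, fitted on all 12861 genes that passed, with Benjamini-Hochberg adjustment and calls at an adjusted p under 0.05. Standard errors derive from the F statistic. The length and GC correction adds offsets per library from splines (5 degrees of freedom each) of gene length and of the GC content of the longest GENCODE M21 transcript, known for all 10 storage genes. DESeq2 1.42.0, run without the low-count filter, and limma 3.58.1 were alternatives, and permutation tests used SciPy 1.17.1. The edgeR step was tested on simulated counts. No pair of libraries was near identical (chi-square per degree of freedom at least 32.1).

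The storage genes and the lists were chosen with earlier results of these data known. All storage genes are named. Of other lists, each called gene is named (some results are not reported here), or the 2 most abundant where none was called; other genes were chosen after their values were seen. Same-numbered libraries of the groups had correlations of deviations of 0.177, 0.059, -0.012 and 0.07. The best match of treated libraries 1, 2, 3 and 4 was control 1, 2, 4 and 3. With 4 libraries per group, each centred on its own mean, these values cannot exclude pairs. The labels do not call the numbers pairs, so they were not taken as such, and fits with a replicate block are given as alternatives.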

Additional observations from a re-analysis of the deposited data

Results flagged for a closer look

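In 26 checks of groups of 4 libraries, 2 held a value far from its group by Dixon's 95% limit, where chance gives about 1 in 20. Plin4 in treated library 1 stood at 27.2 CPM, against 4.63 to 6.81 CPM in the other treated libraries. The log2 ratio of Plin5 over Plin2 in control 1 was -0.13, against -2.41 to -2.15 in the other controls. No cause was tested.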

How the results depend on the processing

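The count of 1184 genes called was 2160 with DESeq2, 2088 with limma-voom, 322 with limma on log2(FPKM + 1) without a filter, 589 after the length and GC correction, 145 at an adjusted p under 0.01 and 2272 under 0.1, and 183 (without treated library 3) to 2330 (without control 4) with a library left out. It also fell to 460, 460, 474, 584 and 397 without treated library 1, 2 or 4, or control 2 or 3. The count of 1 storage gene called was 3 with DESeq2 and limma-voom (Pparg, Dgat2, Plin2), 2 without controls 2 and 4 (Pparg, Dgat2), 2 at an adjusted p under 0.1 (Pparg, Plin2) and 0 under 0.01, and 0 (without treated library 3) to 4 (without control 4) with a library left out. Pparg was called in 15 of 15 other settings and in 7 of 8 fits with a library left out, with log2 fold changes from 1.05 to 1.71. Fits with a replicate block called 944 genes, and 486 with the length and GC correction as well; the block left Pparg as the 1 storage gene called. The uncalled change of Cd36 turned positive with limma on FPKM (0.12 with 1 added, with and without a filter, and 0.14 with 0.1 added), with the block (0.17), after the correction (0.19) and with both (0.42). With a library left out it ran from -0.37 to 0.50, that of Plin4 from -1.09 to 0.58, of Plin5 from -0.58 to 0.14, of Pnpla2 from -0.40 to 0.10 and of Cidec from -1.61 to -0.66. The ratios Dgat2 to Dgat1 and Plin5 to Plin2 kept their direction; that of Pnpla2 to G0s2 ran from -0.77 to 0.47. With 3 libraries against 4 the exact test cannot go below 0.0571. The causes were not tested. Mogat1, with at most 24 reads in a library, is too shallow for a fold change.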

Other observations

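Further genes tied to droplets, chosen after their values were seen, were not called by edgeR. Hsd17b13, a droplet enzyme of hepatocytes, stood at 541, 334, 693 and 417 CPM in treated libraries, against 534, 198, 200 and 120 CPM in controls (log2 0.92, SE 0.45, edgeR adjusted p = 0.212). Vldlr, which takes up triglyceride-rich particles, averaged 45.5 ± 7.52 CPM in treated and 20.3 ± 11.7 CPM in control livers (log2 1.16, SE 0.38, edgeR adjusted p = 0.0893), and was called by DESeq2 and limma-voom. Gpd1, which supplies the glycerol backbone and was called by DESeq2, stood at 190 to 334 CPM in treated and 115 to 188 CPM in control libraries (log2 0.77, SE 0.23, edgeR adjusted p = 0.0599), without overlap. G0s2 ranged from 80.3 to 136.5 CPM in treated libraries and from 55.1 to 298 CPM in controls. Pdk4, a kinase induced by fasting, stood at 6.50 to 15.8 CPM in treated libraries and 6.56 CPM in control 4, against 37.6 to 106 CPM in controls 1 to 3, and was called lower by DESeq2.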
